A study of Rattus norvegicus with 18 samples.

Results

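Genes of the endothelial barrier and of leukocyte adhesion were followed in RNA-seq counts of rat brain. The 10 genes are Cldn5, Ocln, Cdh5, Pecam1, Flt1, Mfsd2a, Icam1, Vcam1, Sele and Selp, found by symbol among the 34873 rows of the count table. A row was found for 9 of them, 8 had a count in at least 1 library, and 6 passed the filter on low counts and were tested. Pecam1 has no row of its own name, Cldn5 has no count, and Sele and Selp fell below the filter. Each of the 3 groups had 6 libraries. NC rats were wild-type and untreated, and CO rats were wild-type animals that breathed carbon monoxide (CO). CLCF1 rats had inhaled CO too, and their genotype label is a Clcf1 knock-down. Clcf1 encodes a secreted cytokine of the interleukin-6 family. The design text gives 1000 ppm CO for 40 min, then 3000 ppm for 20 min, with carboxyhemoglobin above 60% as the sign of a successful model. It also describes rats depleted of their macrophages with liposomes and given bone marrow-derived macrophages carrying lentiviral knock-down or overexpression constructs. It does not say whether NC or CO rats were depleted or given cells, so CLCF1 may differ from CO by these treatments as well as by Clcf1. The labels give no brain region, no time after exposure, no age, strain or sex, and leave it unsaid whether the 6 libraries per group stand for 6 animals.

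Endothelial cells of brain vessels are joined by tight junctions, in which claudins and occludin seal the space between neighbouring cells, and by adherens junctions built on VE-cadherin. Together with a low rate of vesicle transport and a set of dedicated transporters, these junctions form the blood-brain barrier. When endothelium is activated by inflammatory cytokines, it displays selectins, which slow leukocytes, and the immunoglobulin-like receptors ICAM-1 and VCAM-1, which bind leukocyte integrins. NF-κB, named in the series title, is a known inducer of the genes of these adhesion molecules.

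Depth was 15.1 to 20.3 M counts per library. Clcf1 had 1 to 7 counts in the NC libraries, 80 to 118 in CO and 0 to 3 in CLCF1, so the libraries labelled as knock-down lay below those of CO. Libraries 3 to 6 of each group stand apart from libraries 1 and 2. Over the 3 groups there were 42660 cases of a gene with no count in libraries 1 and 2 of a group, and in 0 of them was any count found in libraries 3 to 6 of the same group. Libraries 1 and 2 of the other groups held a count in 2.90% to 8.92% of such genes. Totals of libraries 3 to 6 also lay close to the mean total of libraries 1 and 2. They were 17.41 to 17.85 M against 17.73 in NC, 16.01 to 16.34 against 16.18 in CO and 18.11 to 18.92 against 18.5 in CLCF1. Libraries 3 to 6 can therefore not be taken as independent of libraries 1 and 2. P-values, standard errors and intervals over 6 libraries, also those with 1 library left out, treat them as independent and may be too small. Results of the members are therefore also given for libraries 1 and 2 alone. Most values of related genes and cell type markers are from all 18 libraries only. Every gene of a list of 21 endothelial identity markers had counts, as did all 10 neuron markers.

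After CO, brain held more RNA of Icam1, the leukocyte adhesion receptor, and of Mfsd2a, a lipid transporter of barrier endothelium, and less RNA of Ocln, a tight junction gene. In the CLCF1 group Ocln was higher and Mfsd2a lower than in CO, and the rare transcripts of the selectin genes Sele and Selp were more abundant than in either other group. Between CLCF1 and NC the tested members did not pass. Of the 6 members tested between CO and NC, 2 rose, 1 fell and 3 did not pass edgeR's quasi-likelihood test at an adjusted p of 0.05. Of all 16581 genes tested, 12.7% passed in that comparison, 6.32% higher and 6.40% lower. Between CLCF1 and CO, 1 member rose, 1 fell and 4 did not pass, against 17.0% of all genes (8.63% higher and 8.34% lower). Between CLCF1 and NC, 0 of 6 passed edgeR's test, against 9.26% of all genes (4.43% higher and 4.84% lower). In that comparison 1 member, Vcam1, had an unadjusted p under 0.05, and DESeq2 called 0 of these 6. The comparisons of CO with NC and of CLCF1 with CO share the CO libraries, so a high or low CO value moves both in opposite directions. In libraries 1 and 2 alone edgeR called 0 members in any comparison, although an unadjusted p under 0.05 was reached by 1 member after CO, by 1 between CLCF1 and CO and by 0 between CLCF1 and NC. Of all genes that fit called 4 after CO, 8 between CLCF1 and CO and 2 between CLCF1 and NC.

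**Figure D1:**
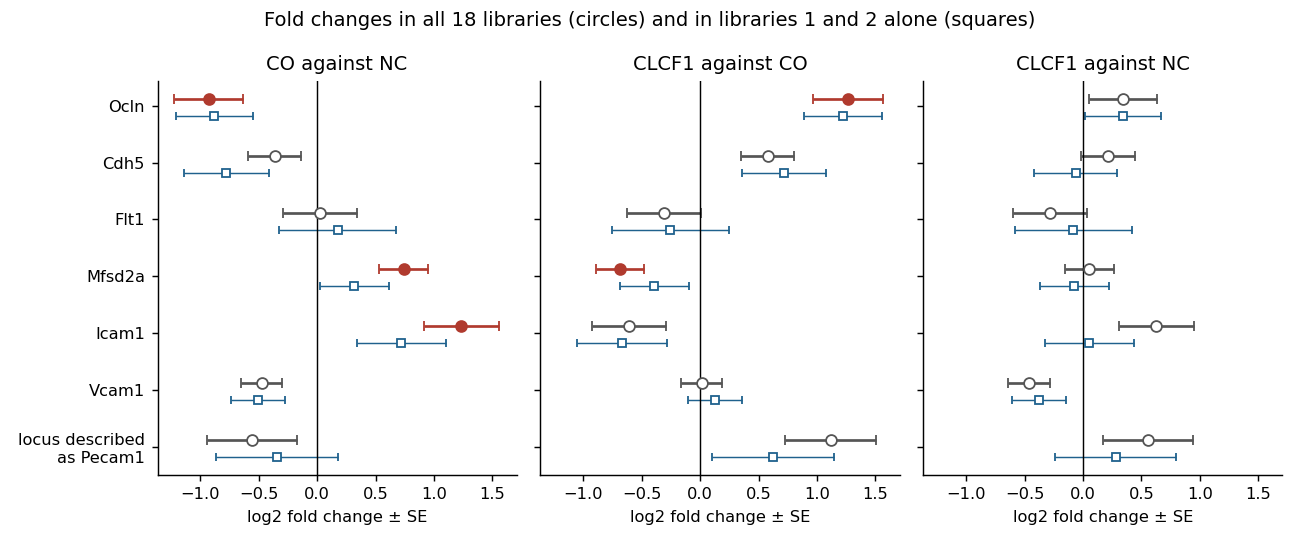
Log2 fold change (horizontal axis) of the 6 tested members and of the unnamed locus described as Pecam1 in the 3 comparisons. Circles are fits on all 18 libraries and squares fits on libraries 1 and 2 alone, bars are ± 1 SE, and filled red circles passed an adjusted p of 0.05. Ocln lies left of 0 in CO against NC (-0.93) and right of it in CLCF1 against CO (1.27), with squares at nearly the same values, while the squares of Mfsd2a and of Icam1 in CO against NC lie nearer to 0 than their circles.

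Claudin-5 is the claudin that sets the tightness of the brain endothelial seal. Its gene Cldn5 (ENSRNOG00000045811, chromosome 11, 86356294 to 86357718, minus strand, in a build the table does not name) was listed at 0 in all 18 libraries. A count of 0 allows up to 0.199 CPM, the count per 1000000 counts of the library after TMM scaling, in the smallest library, taking 3 counts as the limit and covering counting error only. The row lies wholly within that of Cdc45, a DNA replication gene on the plus strand (86329012 to 86358453), which held 8 to 118 counts per library. Since strandedness is not stated, reads of these overlapping genes cannot be told apart. Of 22293 protein-coding rows, 4634 likewise had no count. How the authors' counting assigned reads in the overlap is not stated, so the limit holds for assigned reads alone.

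Occludin, the membrane protein encoded by Ocln (ENSRNOG00000018297, chromosome 2, 30527715 to 30577218, minus strand), is the other tight junction member and passed, like Mfsd2a, in both comparisons that involve the CO group. Its 300 bases from 250 before to 50 after the annotated start are shown because Ocln moved in both comparisons and the window holds a match to the κB motif, in capitals. Whether this match bears on the Ocln level was not tested. The sequence is from RefSeq, build GRCr8, chr2:33441149-33441448, minus strand, written 5′ to 3′ along the gene.
Ocln promoter: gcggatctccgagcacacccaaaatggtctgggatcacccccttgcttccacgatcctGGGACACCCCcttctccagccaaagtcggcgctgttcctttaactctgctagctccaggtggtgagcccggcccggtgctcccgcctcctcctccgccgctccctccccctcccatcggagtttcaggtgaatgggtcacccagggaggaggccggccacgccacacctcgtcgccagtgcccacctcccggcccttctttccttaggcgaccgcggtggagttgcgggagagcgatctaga
Ocln had a lowest, median and highest level of 6.24, 11.8 and 16.3 CPM in the NC libraries, 2.42, 5.77 and 13.3 in CO and 12.9, 15.6 and 17.7 in CLCF1. Of the CO libraries, 5 lay below the NC median and 4 below the lowest NC library, while CO library 5 reached 13.3 CPM, so the groups overlapped. Every CLCF1 library was above the CO median, and 5 of 6 were above all CO libraries. Ocln RNA fell by 0.93 ± 0.30 (SE) on the log2 scale in CO, from 12.1 ± 3.67 CPM (SD, n = 6) to 6.37 ± 3.74 (edgeR adjusted p = 0.0465). It was higher by 1.27 ± 0.30 in CLCF1 than in CO, at 15.4 ± 1.69 CPM (edgeR adjusted p = 0.00796), and differed from NC by 0.34 ± 0.29, which did not pass (0.505). Libraries 1 and 2 alone gave -0.88, 1.22 and 0.34, and there the values of the groups did not overlap in any of the 3 comparisons. The fall in CO passed only narrowly. It did not pass without any 1 library other than NC library 6 or CO library 5, with edgeR adjusted p from 0.0522 to 0.0929 and log2 fold changes from -0.96 to -0.76, and it did not pass when libraries were scaled to their endothelial identity genes (-0.77, adjusted p = 0.0581). That scaling moved the median of all genes from 0.01 to 0.23 in CO against NC and from 0.002 to -0.16 in CLCF1 against CO, and values scaled so are to be read against these shifts. The rise in CLCF1 passed whichever of the 18 libraries was left out, with 1.08 to 1.60. Fewer endothelial cells and less RNA per cell cannot be told apart in bulk tissue, for this gene or the others.

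Occludin is also a junction protein of the choroid plexus epithelium, the tissue that secretes cerebrospinal fluid. The summed level of 12 choroid plexus markers was 85.9 to 442.5 CPM in NC, 13.8 to 186.9 in CO and 123.9 to 6492.3 in CLCF1, none of the 12 being at 0. Of the 11 tested, 9 were higher in CLCF1 than in CO, against 8.63% of all genes tested. The part of this tissue in the Ocln difference was not tested. CLCF1 library 2 had the lowest sum of its group, 123.9 CPM, within the CO range. Its Ocln level of 12.9 CPM was also the lowest of its group, and was above 5 of the 6 CO libraries. CLCF1 library 1 had the highest sum, 6492.3 CPM, and an Ocln level of 16.3. The highest Ocln level of the group, 17.7 CPM, was in CLCF1 library 5, with a sum of 994.7.

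Cdh5 (ENSRNOG00000013324, chromosome 19, 1023683 to 1074365, minus strand) encodes VE-cadherin, the adhesion protein of endothelial adherens junctions. Its lowest, median and highest levels were 23.1, 27.0 and 31.6 CPM in NC, 10.8, 20.8 and 28.7 in CO and 17.8, 30.4 and 47.9 in CLCF1. The groups overlapped in each comparison, with 5 of 6 CO libraries below the NC median and CLCF1 spread more widely than NC (SD 11.4 against 3.20 CPM). The differences were -0.37 ± 0.23 for CO against NC, 0.58 ± 0.23 for CLCF1 against CO and 0.21 ± 0.23 for CLCF1 against NC, and none passed (edgeR adjusted p = 0.301, 0.088 and 0.606). The second passed without CLCF1 library 3 (0.70, adjusted p = 0.0405). Libraries 1 and 2 alone gave -0.78, 0.72 and -0.06, with no call, and there the CO values lay below those of NC without overlap.

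PECAM-1, an adhesion protein at endothelial cell contacts that also guides leukocytes through the vessel wall, has no row under its symbol. An unnamed locus on chromosome 10 (94850971 to 94886247, minus strand) carries a description that names rat Pecam1, and its values are given beside the members without being counted among them. It overlaps another unnamed locus on the same strand. Its lowest, median and highest levels were 7.54, 10.3 and 22.1 CPM in NC, 4.32, 7.40 and 13.9 in CO and 7.69, 13.7 and 39.6 in CLCF1. The groups overlapped, although all 6 CLCF1 libraries were above the CO median. The differences of -0.56 ± 0.39 between CO and NC, 1.12 ± 0.39 between CLCF1 and CO and 0.56 ± 0.38 between CLCF1 and NC were all short of the threshold (edgeR adjusted p = 0.356, 0.0553 and 0.391). The second passed without any 1 of NC library 4, CO library 2 or CLCF1 libraries 2, 3 or 5 (adjusted p 0.0298 to 0.0444, 1.12 to 1.35) and with no filter on low counts (0.0378). Libraries 1 and 2 alone gave -0.34, 0.62 and 0.28, with no call.

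Flt1 (ENSRNOG00000000940, chromosome 12, 9034308 to 9205905, plus strand) encodes VEGF receptor 1, which binds VEGF-A tightly and signals weakly. It ran from 28.6 through a median of 34.5 to 55.0 CPM in NC, from 10.4 through 43.1 to 60.3 in CO and from 21.8 through 31.6 to 36.9 in CLCF1. The CO libraries fell on both sides of the other groups, with libraries 1 and 4 at 17.0 and 10.4 CPM and the remaining ones from 36.1 to 60.3. None of its 3 differences passed: they were 0.02 ± 0.31, -0.31 ± 0.32 and -0.28 ± 0.32 (edgeR adjusted p = 0.971, 0.543 and 0.619). The spread of CO was an SD of 20.8 CPM around a mean of 38.3. Libraries 1 and 2 alone gave 0.17, -0.26 and -0.08, with no call.

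Mfsd2a (ENSRNOG00000014008, chromosome 5, 140642885 to 140657745, minus strand) encodes a transporter that carries docosahexaenoic acid, as a lysophospholipid, into brain, and that in mouse keeps the rate of vesicle transport across brain endothelium low. NC libraries were close together, from 15.95 through a median of 16.8 to 17.5 CPM. The CO libraries held 18.4, 25.2 and 47.3 CPM as lowest, median and highest, and those of CLCF1 12.4, 16.2 and 26.7. All 6 CO libraries were above all 6 NC libraries, whereas CLCF1 overlapped both other groups. The level rose from 16.8 ± 0.576 CPM (SD, n = 6) to 28.1 ± 10.5 in CO, by 0.74 ± 0.21 on the log2 scale (edgeR adjusted p = 0.0264). In CLCF1 it was 17.5 ± 5.19 CPM, lower than in CO by a log2 fold change of -0.68 ± 0.21 (edgeR adjusted p = 0.0295) and 0.06 ± 0.21 from NC (0.906). Libraries 1 and 2 alone gave smaller differences of 0.32, -0.39 and -0.07, with the CO and NC values still not overlapping. CO library 3 held the highest value. Without it the rise was 0.53 (adjusted p = 0.0605) and the difference between CLCF1 and CO -0.47 (0.0773), and neither passed. The rise did not pass without NC library 5 either (0.72, adjusted p = 0.0504), nor did the fall without any 1 of CLCF1 libraries 1, 4, 5 or 6 (-0.67 to -0.62, adjusted p 0.0521 to 0.0605). Scaled to the endothelial identity genes of each library, the differences were 0.98 (adjusted p = 0.00808) and -0.86 (0.0156).

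**Figure D2:**
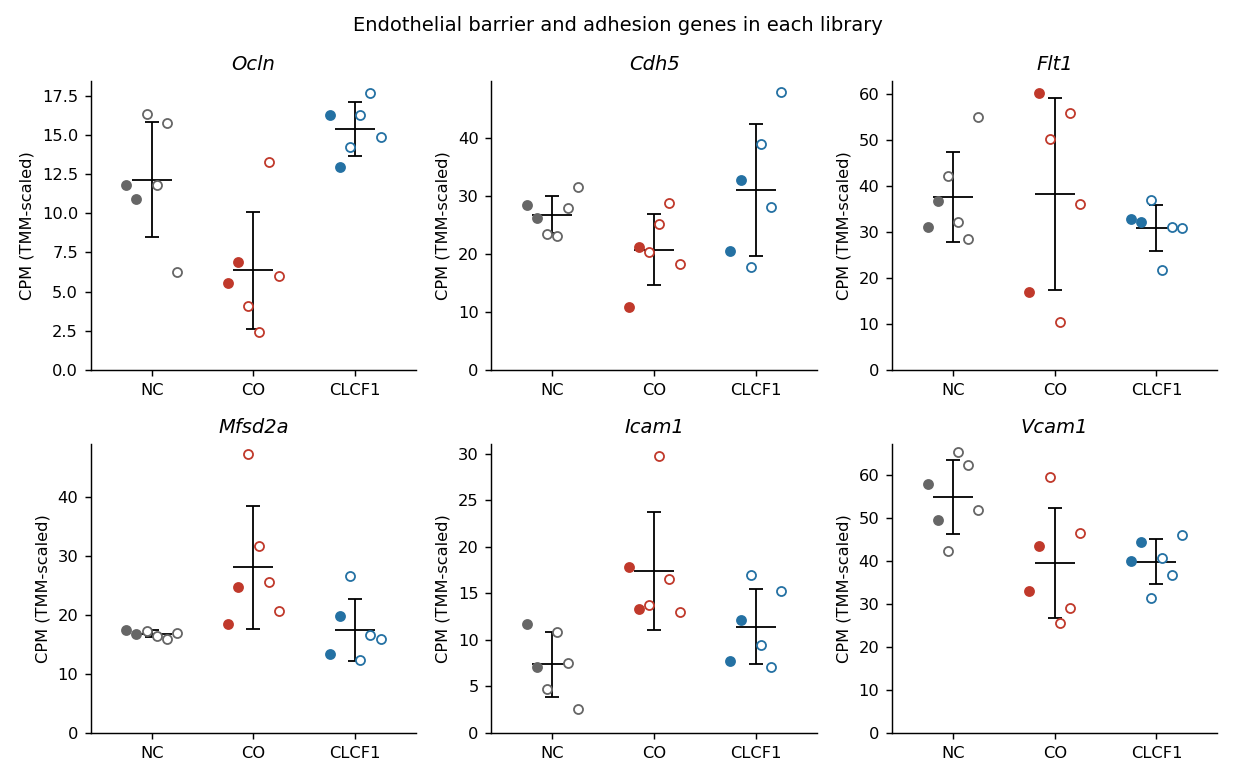
CPM (vertical axis, TMM-scaled) of the 6 tested members in each library of NC, CO and CLCF1. Filled points are libraries 1 and 2, open points libraries 3 to 6, and bars give the mean ± SD of 6 libraries. The CO points of Mfsd2a (18.4 to 47.3 CPM) and Icam1 (13.0 to 29.7) all lie above the NC points (15.95 to 17.5 and 2.59 to 11.7), and those of Ocln mostly lie below both other groups.

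ICAM-1 and VCAM-1 are the endothelial ligands of the leukocyte integrins LFA-1 and VLA-4. Icam1 passed after CO and Vcam1 did not, and the start regions of both genes are shown for that reason. Whether the motif matches in them bear on the RNA levels was not tested. In Icam1 (RefSeq, GRCr8, chr8:27829595-27829894, plus strand) the capitals mark CCGGAA, the core bound by ETS factors, on either strand, and in Vcam1 (GRCr8, chr2:206742734-206743033, minus strand) they mark a match to the κB motif.
Icam1 promoter: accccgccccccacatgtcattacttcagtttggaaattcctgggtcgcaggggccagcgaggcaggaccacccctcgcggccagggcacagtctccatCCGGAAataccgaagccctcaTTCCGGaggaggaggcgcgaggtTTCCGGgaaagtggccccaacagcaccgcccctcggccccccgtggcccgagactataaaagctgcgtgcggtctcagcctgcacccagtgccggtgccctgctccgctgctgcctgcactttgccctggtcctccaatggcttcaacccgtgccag
Vcam1 promoter: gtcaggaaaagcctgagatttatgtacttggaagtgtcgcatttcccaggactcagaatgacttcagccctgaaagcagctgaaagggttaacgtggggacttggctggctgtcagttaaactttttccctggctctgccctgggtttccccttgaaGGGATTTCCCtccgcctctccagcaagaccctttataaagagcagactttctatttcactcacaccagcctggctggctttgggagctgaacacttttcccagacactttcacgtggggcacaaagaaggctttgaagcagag
The RefSeq table held such windows for 6 of the 10 members, Cldn5, Ocln, Flt1, Icam1, Vcam1 and Sele. Each was searched on both strands for the κB motif, for the AP-1 motif TGANTCA, for ACGTG, the core of the hypoxia response element, and for CCGGAA, with overlapping matches kept. The κB motif matched in Ocln at -192 to -183, in Flt1 at -135 to -126 and in Vcam1 at -93 to -84, where the same 10 letters match on both strands, and it occurs in 4.18% of 33469 promoters of this length. The letters CCGGAA stood at -151, -130 and -107 in Icam1 and in none of the other 5 windows, against 14.95% of all promoters. The letters ACGTG matched at -159, 18 and 19 in Vcam1, the last pair overlapping on opposite strands, and occur in 19.3% of promoters. AP-1 matched in none of the 6 windows and in 7.33% of all. These are matches of letters only, not evidence of binding. The κB search listed only stretches that fit its pattern of 10 letters at every position, and κB sites that depart from it were not sought. The lack of a listed κB match in Icam1, Cldn5 and Sele therefore does not show that these windows hold no κB site.

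Icam1 (ENSRNOG00000020679, chromosome 8, 22035256 to 22047059, plus strand) had 2.59, 7.30 and 11.7 CPM as lowest, median and highest in NC, 13.0, 15.2 and 29.7 in CO and 7.04, 10.8 and 17.0 in CLCF1. Every CO library was above every NC library, and CLCF1 lay between and overlapped both. Mfsd2a and Icam1 were the 2 of 6 tested members whose CO and NC libraries did not overlap, against 6.35% of all genes tested. The mean rose from 7.40 ± 3.50 CPM (SD, n = 6) in NC to 17.4 ± 6.35 in CO, by 1.23 ± 0.32 on the log2 scale or 2.35-fold (edgeR adjusted p = 0.0182), and this passed whichever library was left out (1.01 to 1.43, adjusted p 0.0116 to 0.0465). The mean in CLCF1 was 11.4 ± 4.07 CPM. Its differences from CO (-0.60 ± 0.32) and from NC (0.63 ± 0.32) did not pass (edgeR adjusted p = 0.196 and 0.229). In libraries 1 and 2 alone the rise in CO was 0.72 and did not pass, with CO values of 17.9 and 13.3 CPM above NC values of 11.7 and 7.08. Scaled to endothelial identity genes, the rise was 1.48 (adjusted p = 0.00573).

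Vcam1 (ENSRNOG00000014333, chromosome 2, 219071193 to 219097619, minus strand) did not pass in any comparison, and the difference between its response and that of Icam1 was not tested. Its lowest, median and highest levels were 42.3, 54.8 and 65.2 CPM in NC, 25.4, 38.1 and 59.4 in CO and 31.3, 40.2 and 45.9 in CLCF1. Of the CO libraries 5, and of the CLCF1 libraries 6, were below the NC median, and both groups overlapped NC. The differences from NC were -0.47 ± 0.18 in CO and -0.46 ± 0.18 in CLCF1, and CLCF1 and CO differed by 0.01 ± 0.18. None passed (edgeR adjusted p = 0.0827, 0.105 and 0.972). The first passed without CO library 3 (-0.63, adjusted p = 0.0197), and both values from libraries 1 and 2 alone had the same sign (-0.51 and -0.38). Summed markers of pericytes and smooth muscle were 308 to 400.5 CPM in NC, 140.2 to 266.2 in CO and 176.4 to 262.7 in CLCF1, with counts for 15 of 15 markers, so in these sums, unlike in Vcam1, NC did not overlap the other groups. The part of mural cells in the Vcam1 values was not tested. Non-overlap of libraries 1 and 2 was seen for 5 of 6 members in CO against NC, where 34.1% of all genes show it, and for 2 of 6 each in CLCF1 against CO (30.7% of all genes) and CLCF1 against NC (27.3%). Over 6 libraries, 0 of 6 members separated in CLCF1 against CO, against 7.12% of genes, and 0 of 6 in CLCF1 against NC, against 5.63%.

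E-selectin and P-selectin catch flowing leukocytes by their surface sugars. P-selectin is stored ready-made in endothelial granules and in platelets, whereas E-selectin is made anew on activation. Their genes, Sele (ENSRNOG00000002723, chromosome 13, 82355471 to 82365341, plus strand) and Selp (ENSRNOG00000002794, chromosome 13, 82429063 to 82464628, plus strand), were near the limit of detection. Sele had 6, 0, 0, 0, 2 and 0 counts in NC libraries 1 to 6, then 0, 3, 3, 1, 3 and 0 in CO and 4, 31, 14, 9, 15 and 12 in CLCF1. Selp had 1, 0, 0, 0, 0 and 0 counts in NC, then 1, 1, 0, 1, 1 and 2 in CO and 11, 2, 4, 7, 6 and 6 in CLCF1. All 6 CLCF1 libraries were above all CO libraries for Sele in CPM, and above all NC libraries for Selp. The 4 CLCF1 values of libraries 3 to 6 lay between those of libraries 1 and 2 for both genes.

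The summed counts of Sele were 8 in NC, 10 in CO and 85 in CLCF1. Scaled for library size, CLCF1 held 7.28 times the Sele counts of CO (95% exact binomial interval 3.77 to 15.7, counting error only) and 10.3 times those of NC (4.99 to 24.6). All intervals of these ratios pool the 6 libraries of a group as independent counts. Since libraries 3 to 6 cannot be taken as independent, the intervals may be too narrow even for counting error. For Selp the sums were 1, 6 and 36, and the ratios were 5.14 (2.15 to 14.9) against CO and 34.8 (5.86 to 1413.1) against NC. With the filter on low counts removed, both genes passed in CLCF1 against CO (edgeR adjusted p = 0.0188 for Sele and 0.0124 for Selp) and against NC (0.0142 and 0.00128). Neither passed in CO against NC (0.818 and 0.109), where the ratios were 1.41 (0.501 to 4.11) for Sele and 6.77 (0.822 to 311.5) for Selp. The Selp difference passed there without NC library 1 (adjusted p = 0.0341). Without the filter, 3 of 8 members were called in CO against NC, 4 of 8 in CLCF1 against CO and 2 of 8 in CLCF1 against NC, while 19.0%, 24.9% and 19.0% of all genes were. Libraries 1 and 2 alone gave the selectin genes log2 fold changes of 3.09 and 2.45 against CO and of 2.10 and 3.32 against NC, with no call, and there NC library 1 (0.398 CPM of Sele) was above CLCF1 library 1 (0.238). NC library 1 holds 6 of the 8 Sele counts and the single Selp count of its group. Over all libraries the log2 fold changes in CLCF1 against NC were 3.14 and 4.34, and when 1 library was left out they ran from 2.80 to 4.68 for Sele and from 4.03 to 5.56 for Selp, the highest values being those without NC library 1. That last Selp value is set against a group with no count, so its size depends on the fit's prior count. The summed level of 18 blood cell and platelet markers found was 67.6 to 821.1 CPM in NC, 52.4 to 170 in CO and 171.3 to 321 in CLCF1, with the platelet gene Ppbp among those at 0. Of the 8 tested, 0 rose and 2 fell in CO, 3 were higher and 0 lower in CLCF1 than in CO (median 1.38), and 2 were higher and 1 lower in CLCF1 than in NC (median -0.12). Of all genes tested under the filter, 12.7%, 17.0% and 9.26% passed in these comparisons. Pf4, known from platelets and chosen after its values were seen, was higher in CLCF1 than in CO by 2.23 ± 0.59 (edgeR adjusted p = 0.0147) and than in NC by 2.12 ± 0.58 (0.0286). Bulk counts do not show which cells held Pf4 RNA, and the part of platelets or of other cells in the Selp counts was not tested.

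**Figure D3:**
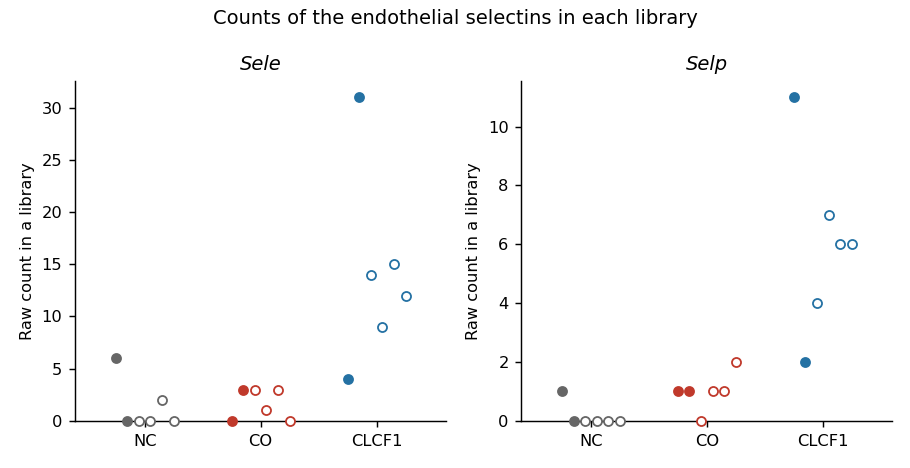
Raw counts (vertical axis) of Sele and Selp in each of the 6 libraries of NC, CO and CLCF1, with libraries 1 and 2 filled and 3 to 6 open. Counts reach 6 and 1 in NC, 3 and 2 in CO, and 31 and 11 in CLCF1, and the open CLCF1 points lie between the filled ones.

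Levels of different genes were compared per kilobase of the length that the table gives. In NC, Vcam1 was highest with 13.7 ± 2.14 CPM per kb (SD, n = 6), followed by Mfsd2a at 7.88 ± 0.27, Cdh5 at 6.65 ± 0.796, Flt1 at 5.40 ± 1.40, Ocln at 2.82 ± 0.852 and Icam1 at 2.80 ± 1.32. The lowest Vcam1 library in NC (10.55) was above the highest of Mfsd2a (8.21). Mfsd2a, Cdh5 and Flt1 overlapped their neighbours in that order, and Ocln and Icam1 did not differ beyond their spread. In CO the order was led by Mfsd2a at 13.2 ± 4.91 and Vcam1 at 9.84 ± 3.19, which overlapped. Icam1 followed at 6.58 ± 2.40 and Ocln last of the 6 at 1.48 ± 0.868. In CLCF1 the order of the leading genes was again Vcam1 (9.92 ± 1.32), Mfsd2a (8.18 ± 2.43) and Cdh5 (7.70 ± 2.82), with overlap between neighbours. Sele and Selp were far below, at 0.211 ± 0.122 and 0.105 ± 0.0589 CPM per kb in CLCF1, their highest group.

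Lists of related genes, chosen with earlier results of these data known, were read from the same fit. Medians of the log2 fold change over all genes tested were 0.01 (CO against NC) and 0.002 (CLCF1 against CO). The counts of all lists below are to be read beside the share of all genes that passed. It was 12.7% in CO against NC, 17.0% in CLCF1 against CO and 9.26% in CLCF1 against NC. Endothelial identity genes had 0 higher and 4 lower of 21 tested in CO (median -0.27). The 3 with the smallest p were Clec14a, an endothelial surface lectin (-2.86 ± 0.46), Tie1, an orphan receptor of the angiopoietin system (-1.24 ± 0.23), and Erg, an endothelial transcription factor (-1.23 ± 0.32). In libraries 1 and 2 alone these 3 were at -1.75, -0.77 and -0.92, and the median of the list was -0.36. In CLCF1 against CO, 4 were higher and 1 lower (median 0.15), among them Clec14a (2.16 ± 0.45), Erg (1.44 ± 0.32) and Sox17, a transcription factor of arterial endothelium (-1.06 ± 0.24). The summed level of these 21 genes was 417.5 to 488.6 CPM in NC, 326.3 to 483.4 in CO and 374.1 to 459.2 in CLCF1, so the groups overlapped. Ly6e had the highest mean of the list, 127.8 CPM in NC, 131.9 in CO and 125.2 in CLCF1, and passed in no comparison. The sums, and the scaling to endothelial identity genes, therefore weigh this gene more than those that passed.

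Of 19 tight and adherens junction genes, 2 fell in CO (median -0.11), among them the cingulin-like gene Cgnl1 (-1.45 ± 0.42). Of all genes, 12.7% passed in that comparison. In CLCF1 against CO, 3 rose and 0 fell (median 0.21): Cgnl1 (2.02 ± 0.43), cingulin Cgn (1.35 ± 0.33) and claudin-1, Cldn1 (2.34 ± 0.62). Cldn1 was also the single gene of this list that passed against NC (3.33 ± 0.66). Claudin-1 is present in choroid plexus epithelium, and the part of that tissue, whose sums are given beside Ocln, was not tested here either. Barrier transporters moved in both directions. In CO, 1 of 19 rose and 3 fell, with Slc2a1, the glucose transporter GLUT1, higher (0.83 ± 0.17) and Slc38a5, an amino acid transporter (-2.28 ± 0.49), and Abcb1a, the drug efflux pump P-glycoprotein (-0.89 ± 0.19), lower. Between CLCF1 and CO, Slc2a1 fell by 1.12 ± 0.17 and the large amino acid transporter gene Slc7a5 by 0.50 ± 0.12, whereas the organic anion transporter gene Slc22a8 rose (1.03 ± 0.23), as part of 2 higher and 3 lower genes. Of 9 genes of caveolae and vesicle transport, the endocytic recycling gene Ehd4 rose (0.66 ± 0.15) and Cav2, the gene of caveolin-2, fell (-0.54 ± 0.11) in CO. Cav2 (0.68 ± 0.11) and Plvap, a diaphragm protein of leaky endothelium (1.75 ± 0.42), were higher in CLCF1 than in CO. The part of choroid plexus tissue in the differences between CLCF1 and CO, those of Slc22a8 and Plvap among them, was not tested.

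Among 18 genes of VEGF and angiopoietin signalling, 3 rose and 2 fell in CO. Vegfa, the ligand of Flt1, rose by 0.70 ± 0.15, Esm1, a proteoglycan gene of endothelial tip cells, by 2.79 ± 0.62, and the apelin receptor gene Aplnr fell by 2.51 ± 0.45. In CLCF1 against CO, 1 rose and 4 fell, with Vegfa (-0.78 ± 0.15), the receptor gene Notch4 (-0.79 ± 0.17) and the netrin receptor gene Unc5b (-0.57 ± 0.15) having the smallest p. Wnt and Norrin signalling maintains the barrier. Of 16 such genes tested, 0 rose and 2 fell in CO, among them the transcription factor gene Tcf7 (-1.53 ± 0.42). Of all genes, 12.7% passed in that comparison. Tcf7 was higher in CLCF1 than in CO (1.71 ± 0.42), where Lrp5, a Wnt co-receptor gene, was lower (-0.54 ± 0.18).

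Leukocytes bind the adhesion molecules through integrins and selectin ligands, several of which other brain cells also make. Of 12 leukocyte integrins and selectin ligands tested, 0 rose and 2 fell in CO: Itgal, the LFA-1 chain that binds ICAM-1 (-1.69 ± 0.49), and Itga4, the VLA-4 chain that binds VCAM-1 (-1.06 ± 0.31). Both were rare, with means of 0.825 and 0.630 CPM in CO, whereas Itgb1, the β chain of VLA-4, had 97.8 CPM there and Selplg, the P-selectin ligand, 31.5. In CLCF1, Itgal (1.75 ± 0.49) and Itgax, an integrin gene of dendritic cells and macrophages (1.38 ± 0.31), were higher than in CO. Of 16 other adhesion molecules, 3 rose and 1 fell in CO, with the nectin-like gene Pvr (1.58 ± 0.31) and Icam5 (0.56 ± 0.14), a neuronal ICAM, higher, and Icam2 (-1.37 ± 0.31), an endothelial and platelet ICAM, lower. Between CLCF1 and CO 1 was higher and 4 were lower, led by Icam4, a red cell ICAM (-2.96 ± 0.38), and Mcam, an adhesion protein of vessel walls (-1.01 ± 0.25).

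Cytokines and NF-κB induce adhesion molecules. Of 15 cytokine and NF-κB genes tested, 4 rose and 0 fell in CO against NC (median 0.30). Those with the smallest p were Il1b (4.37 ± 0.65), Rel (2.39 ± 0.38) and Nfkbia (2.13 ± 0.52). Il1b is the gene of interleukin-1β, Rel an NF-κB subunit gene and Nfkbia the gene of the NF-κB inhibitor IκBα. In CLCF1 against CO, 1 rose and 3 fell, among them Il1b, from 4.57 ± 2.16 CPM in CO to 0.0298 ± 0.073 in CLCF1, and Nfkb1 (-0.84 ± 0.17), while Tnfrsf1a, a receptor of tumour necrosis factor, was higher (0.96 ± 0.19). Of 20 other genes of endothelial activation, 3 rose and 0 fell in CO, the chemokine genes Ccl2 (5.59 ± 0.63) and Cxcl2 (1.82 ± 0.48) and the protease inhibitor gene Timp1 (0.80 ± 0.23). In CLCF1 against CO, 2 rose and 9 fell (median -0.53), including the endothelin gene Edn1 (-2.35 ± 0.34), and Cxcl2 had no count in CLCF1. Against NC, 3 were higher and 5 lower in CLCF1, with the flow-responsive factor gene Klf2 lower (-1.16 ± 0.19) and Ccl2 (3.83 ± 0.63) and Lcn2, the gene of lipocalin-2 (2.88 ± 0.49), higher. These lists hold genes that many brain cell types express.

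**Figure D4:**
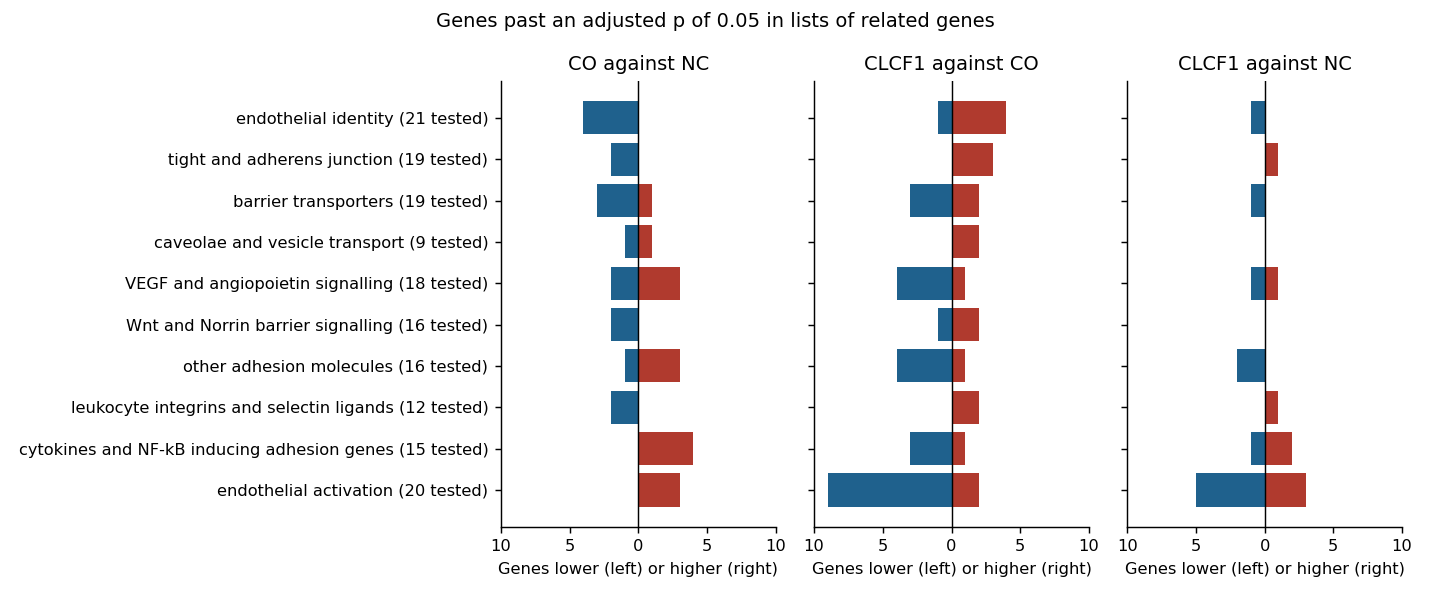
Number of genes (horizontal axis) past an adjusted p of 0.05 in 10 lists of related genes, lower to the left in blue and higher to the right in red, for the 3 comparisons. Endothelial identity genes show 4 lower in CO and 4 higher with 1 lower in CLCF1 against CO, and the endothelial activation list shows 3 higher in CO and 9 lower with 2 higher in CLCF1 against CO. Of all genes tested, 12.7% passed in CO against NC, 17.0% in CLCF1 against CO and 9.26% in CLCF1 against NC.

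Markers of neighbouring cell types were read beside the members, without a measure of their likeness to the member values. In CO, 4 of 15 pericyte and smooth muscle genes and 5 of 14 meningeal fibroblast genes fell and 0 rose, with medians of -0.65 and -0.70 and fibroblast sums of 1068.6 to 1367.1 CPM in NC, 397 to 1186.1 in CO and 802.8 to 1174.0 in CLCF1. Of all genes tested, 6.32% rose and 6.40% fell in CO. Of 12 microglia genes tested, 1 rose and 1 fell in CO, and sums overlapped (442.7 to 566.3 CPM in NC and 430.1 to 588.9 in CO). Neuron sums in CO were 6334.8 to 6954.8 CPM, all above those of NC (5064.4 to 5673.6), with 3 of 10 genes higher and 0 lower, and were 5672.2 to 6789.8 in CLCF1. Sums of 12 astrocyte end foot genes, of which 0 rose and 1 fell in CO, were 4194.5 to 5260.9 CPM in NC, 2986.5 to 3621.0 in 5 CO libraries and 3840.4 to 4768.7 in CLCF1. The remaining CO library, number 5, had 6577.0, and it is also the CO library with the highest Ocln level. The part of these cells in the member values was not tested.

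**Figure D5:**
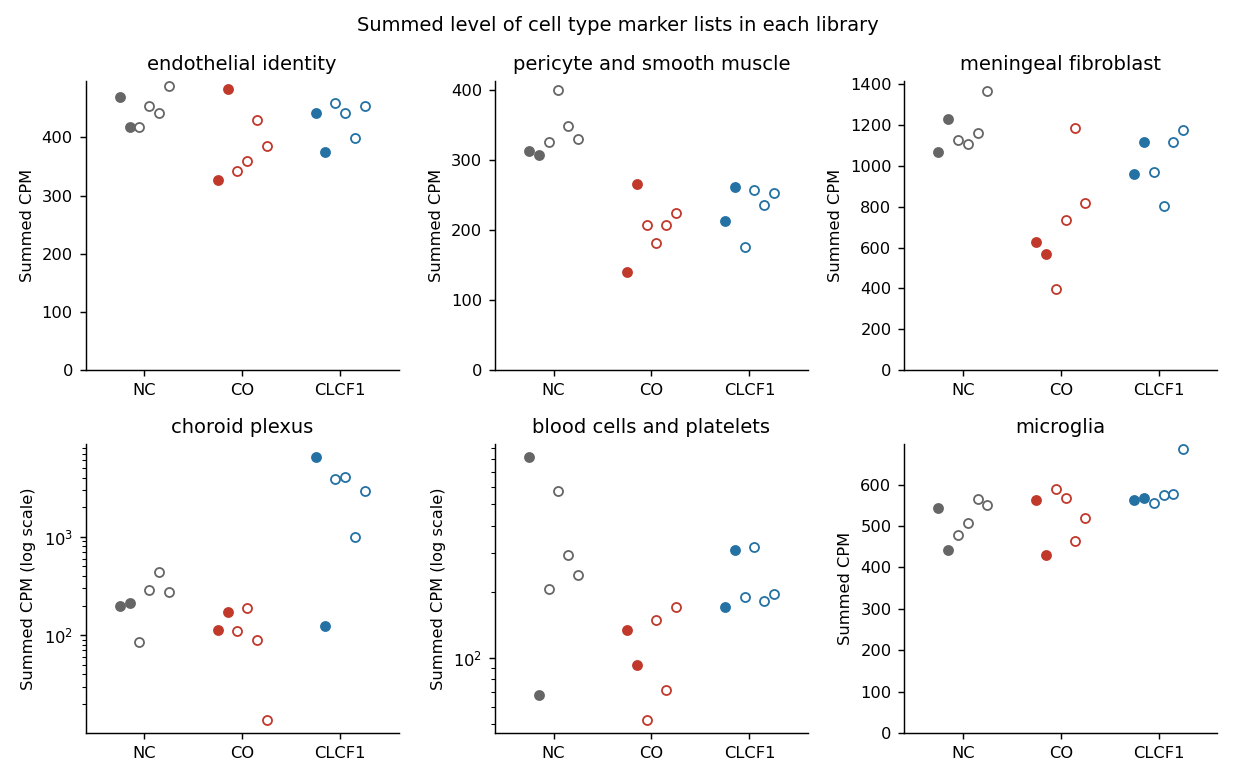
Summed CPM (vertical axis) of 6 marker lists in each library, with log axes for choroid plexus and for blood cells and platelets. Filled points are libraries 1 and 2. Pericyte and smooth muscle sums are 308 CPM or more in NC and at most 266.2 in the other groups, and choroid plexus sums reach 6492.3 CPM in CLCF1.

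Among 14106 named genes with a mean log2 CPM above 0, the 5 whose log2 CPM was most like that of Icam1 over the 18 libraries were Phlda1 (Pearson r = 0.863), Atg16l1 (0.821), Jdp2 (0.820), Gng5 (0.820) and Tlr13 (0.806). Over the 6 libraries numbered 1 and 2 the same coefficients were 0.729, 0.540, 0.618, 0.575 and 0.947. The points share libraries and groups, so these values describe likeness only. For Cldn5, with no count, no such measure exists.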

How the data were processed

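The data are RNA-seq counts of 18 rat brain libraries, whose titles give the group and the number within it (6 per group). RNA was purified on columns and 1.3 µg of it was used per library with a SMARTER kit for mRNA, per the labels' protocols. The authors deposited raw, whole-number counts per gene in 1 table of 34873 rows, with symbols, coordinates and lengths, and without normalization. The aligner, the counter and strandedness were sought in the labels and are not stated there (not given in the sources used here). Builds named by the submitters' processing notes are GRCm38 and mm10, both of mouse, although the table's IDs and symbols are of rat, so the table's coordinates are printed without a build.

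Counts were fitted with edgeR 4.0.16 in R 4.3.3: TMM scaling, filterByExpr defaults (16581 genes kept, 18292 removed), 1 robust quasi-likelihood fit of all 18 libraries and Benjamini-Hochberg adjustment over all genes tested, with a threshold of 0.05. CPM are counts per 1000000 of the TMM-scaled library size. Library depth was 15.1 to 20.3 M counts, and the common dispersion was 0.0972. Replicate pairs differed by 39.1 to 70.8 chi-square units per degree of freedom, so none agreed within sampling noise. P-values measure the spread between libraries, which may be technical in part. Intervals and limits for a count of 0 (3 counts) cover counting error only, and the intervals pool all libraries of a group as independent.

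The 10 members were all named. From each list of related genes the 3 with the smallest p among those passing were named per comparison, and not all that this rule selects are printed, some being not reported here. Pf4 was chosen after its values were seen. For Cldn5 and Icam1 the rule also named the 5 genes with the highest correlation. The members and the lists were chosen with earlier results of these data known. Deviations of same-numbered libraries of different groups had correlations from -0.0283 to 0.149, and no pairing was used. A library was most like the one of its own number for 6 of 12 in CO against NC. The same held for 4 of 12 in CLCF1 against CO and for 1 of 12 in CLCF1 against NC, so a pairing is not excluded. Alternatives changed 1 choice each. For scaling they were size factors from DESeq2, plain library size, or the summed counts of the endothelial identity list. For the filter they were none, or at least 10 counts in 6 libraries with a mean of 1 CPM. For the tool they were DESeq2 (1.42.0) and voom with quality weights in limma (3.58.1). The others were a fit of the 2 compared groups only, a log2 fold change of at least 1 in either direction, a replicate block, libraries 1 and 2 or 3 to 6 alone, and leaving out each library. Leaving out libraries without the filter for Sele and Selp, and all alternatives for the unnamed locus, were added after seeing the data, the former changing 2 choices together. The fits were tested on simulated counts with known changes. Promoter windows came from RefSeq, build GRCr8.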

Additional observations from a re-analysis of the deposited data

Results flagged for a closer look

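Single libraries stood far from the other 5 of their group in 4 of 27 sets of a gene in a group. Chance alone marks about 1 set in 20 of continuous values, a rate that does not hold for the sets of Sele and Selp, which are mostly at 0. Icam1 was 29.74 CPM in CO library 4 and 13.0 to 17.9 CPM in the other CO libraries. The unnamed locus described as Pecam1 was 22.1 CPM in NC library 4 and 7.54 to 12.6 in the other NC libraries. Sele was 0.398 CPM in NC library 1 (6 counts) and at most 0.113 in the others, and Selp was 0.0663 CPM in the same library (1 count), with no count in the other 5.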

How the results depend on the processing

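The 3 calls of members in CO against NC became 1 with a log2 fold change of at least 1 in either direction and 0 with libraries 1 and 2 alone or libraries 3 to 6 alone, and ranged from 1 to 3 when 1 library was left out (1 without NC library 5). The 2 calls in CLCF1 against CO became 1 with that fold threshold, with limma-voom and with only the 2 groups compared, 4 with no filter or DESeq2, 0 with libraries 1 and 2 or 3 to 6 alone, and 1 to 3 without 1 library (1 without CO library 3 or CLCF1 library 1, 4, 5 or 6). In CLCF1 against NC, 0 calls became 2 with no filter or DESeq2 (Sele and Selp), 1 (Vcam1, -0.48) with only the 2 groups compared, and stayed 0 without any 1 library. Genes called among all tested were 2110 for CO against NC, 2814 for CLCF1 against CO and 1536 for the last comparison. They became 1088, 1468 and 913 with the fold threshold, 4291, 5645 and 4292 with no filter, 4140, 5254 and 3900 with DESeq2, 4, 8 and 2 with libraries 1 and 2, and 918, 1436 and 736 with libraries 3 to 6. Without 1 library they ranged from 1672 to 2169, 2427 to 3033 and 1219 to 1798. Libraries 1 and 2 or 3 to 6 alone hold fewer samples, and the cause of their shifts and of the others was not tested. Signs turned only for differences that passed nowhere. Flt1 in CO against NC was -0.0179 with library size alone, -0.23 with limma-voom, -0.13 with the replicate block, -0.0532 with libraries 3 to 6 and -0.15 to 0.22 without 1 library. Vcam1 in CLCF1 against CO was -0.15 scaled to endothelial identity genes, -0.0574 with libraries 3 to 6 and -0.11 to 0.17 without 1 library. With libraries 1 and 2, Cdh5 (-0.062) and Mfsd2a (-0.0742) turned in CLCF1 against NC, where Mfsd2a ran from -0.11 to 0.12 without 1 library, and Sele (-0.99) in CO against NC. The labels state no pairing by library number. Deviations correlated above 0.1 in 1 of 18 same-numbered pairs, and the samples were not treated as paired. The replicate block gave 3, 2 and 0 member calls and 1944, 2787 and 1477 gene calls and changed no member's call. At this depth Sele and Selp fall under the filter on low counts and were tested with edgeR only without it.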
